A study of Mus musculus with 24 samples.

Results

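Lage3, Osgep, Tprkb, Trp53rka and Trp53rkb encode subunits of the KEOPS complex in the mouse. They are 5 of the 38019 gene symbols measured in limb buds, and all 5 had a row in each of the 24 libraries. The set was chosen by Lage3, which was low in mutant forelimb buds at E11.5 in these same libraries, and the other 4 genes were taken as its partners in the complex. Values from that contrast are therefore given as a description without a test, for Lage3 and for the partners. Any other contrast that uses the E11.5 forelimb libraries is likewise a description for Lage3.

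KEOPS transfers a threonylcarbamoyl group to the adenosine next to the anticodon of tRNAs that read codons beginning with A. The resulting base, t6A, is needed for accurate decoding and start codon choice. Osgep is the catalytic subunit. Trp53rk, the mouse counterpart of yeast Bud32, is a kinase-like ATPase that is bound by Tprkb. Lage3, related to yeast Pcc1, binds Osgep and is a small scaffold and dimerization subunit. In humans, mutations in genes of this complex cause Galloway-Mowat syndrome, which affects the kidney and the brain.

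Total RNA of whole dissected limb buds was sequenced from U11flx/flx::Prrx1-Cre+ embryos, called mutant (Mut), and from U11flx/flx::Prrx1-Cre- embryos, called WT. Both genotypes carry the floxed U11 alleles in strain C57/Bl6, and Cre is the only labelled difference. U11 is a small nuclear RNA of the minor spliceosome, and Prrx1-Cre acts in limb mesenchyme, so ectoderm, blood and vessel cells in the bud are expected to keep U11. Hindlimb (HL) and forelimb (FL) buds were taken at E10.5 and E11.5, with 3 libraries in each of the 8 groups. The labels do not say whether libraries came from separate embryos, so p-values measure the spread between these libraries. In such bulk samples, fewer cells of a type and less RNA per cell cannot be told apart.

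Levels are given as TPM, the share of transcripts in a library corrected for transcript length. The libraries were brought to the same median over the 3518 genes that no library held below 5 TPM. Scale factors ran between 0.539 and 1.507, and TPM keeps no read depth. Rnu11, the U11 gene, was measured at 135 to 237 TPM in E11.5 Mut FL and at 1253 to 1344 TPM in E11.5 WT FL, and at 337 to 420 TPM in E11.5 Mut HL and 922 to 2087 TPM in E11.5 WT HL. At E10.5 Rnu11 overlapped in FL, with 158, 94.2 and 482 TPM in Mut and 250.8 to 1063 TPM in WT. The 482 TPM was in Mut FL replicate 3, described below, and the other Mut FL libraries lay below every WT FL library. In E10.5 HL Rnu11 did not overlap, with 164 to 267 TPM in Mut and 427 to 716 TPM in WT. The log2 difference of Rnu11 was -2.92 in E11.5 FL (limma adjusted p = 0.000747) and -1.91 in E11.5 HL (0.0754), while at E10.5 it was -1.55 for FL (0.897) and -1.47 for HL (1). Xist, the RNA of the inactive X chromosome, reached at least 5 TPM in 6 libraries, all mutant, so the embryos' sexes are not matched between genotypes. Of these 6, E10.5 Mut FL replicate 3 also held Y-linked messages, with Xist at 8.03 TPM beside Ddx3y at 6.49, Eif2s3y at 9.73, Kdm5d at 5.99 and Uty at 7.35 TPM, so it held RNA of both sexes. This library also held hindlimb markers, with Pitx1 at 1.53 TPM and Hoxc10 at 3.91 TPM, while its forelimb marker Tbx5 was at 1.81 TPM. E10.5 WT FL replicate 1 was low in Tbx5 as well, at 2.25 TPM beside 7.47 and 10.1 TPM in the other E10.5 WT FL libraries. It also held the lowest Rnu11 of that group, at 250.8 TPM. E10.5 reads were trimmed by 3 nt per the labels and E11.5 reads carry no such note, so stage and trimming cannot be told apart. The summed level of 5 limb mesenchyme markers ran between 61.1 and 133 TPM over the 24 libraries, and none of the 5 was at 0 in all libraries of a group.

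The sequences below show where the Lage3 message is joined and how alike the Trp53rk genes are. Lage3 lies on the X chromosome at chrX:74351276-74353618 on the minus strand (GRCm38, GENCODE M21), and its transcript has 3 exons and a coding length of 444 bases. Its first intron, chrX:74353003-74353324, is 322 bases long and its second, chrX:74352499-74352873, is 375 bases long. Both interrupt the coding sequence. Each line gives 30 bases of spliced message across a junction, 5′ to 3′, with the 3 bases on each side of the junction in capitals.
Lage3, first junction: ccgacatcacagATTCTCcctcttcgtgcc
Lage3, second junction: ctgcatgctggaGGTACGctggatcgcgga
The splice sites inside these introns were not analysed here, so the introns are not assigned to the major or the minor spliceosome.

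Osgep lies at chr14:50906478-50924893 on the minus strand with 11 exons, and an annotated snRNA gene, Gm24689, overlaps it on the opposite strand. Tprkb lies at chr6:85911865-85930284 on the plus strand with 6 exons, and Nat8f1 and the processed pseudogene Gm18290 overlap it on the opposite strand. Trp53rka (chr2:165490110-165493324, minus strand) and Trp53rkb (chr2:166792531-166799505, plus strand) are near-identical copies with 2 exons each. Their coding sequences are both 732 bases long and 98.5% identical, with 11 differing bases and an identical run of 406 bases. The first 60 coding bases are shown because they hold 4 of the differences, in capitals.
Trp53rka, coding bases 1 to 60: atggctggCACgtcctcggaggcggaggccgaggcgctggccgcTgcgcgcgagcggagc
Trp53rkb, coding bases 1 to 60: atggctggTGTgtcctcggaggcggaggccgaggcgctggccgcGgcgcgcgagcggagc
Of all windows of 50 bases, 30.8% of those in the Trp53rka message and 12.9% of those in the Trp53rkb message occur in the other copy. How reads that match both were shared out is not given in the sources used here, so the split of TPM between the copies is uncertain, and their sum is also given.

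Lage3 was the most abundant of the 5 messages in most libraries, and in E11.5 Mut FL it was not. Lage3 was above Osgep in 18 of the 21 libraries outside E11.5 Mut FL. The exceptions were E10.5 WT FL 3, E10.5 Mut FL 3 and E11.5 Mut HL 1. In E11.5 Mut FL it was below Osgep in 3 of 3. Over all 24 libraries the medians were 15.7 TPM for Lage3, 14.3 TPM for Osgep, 5.37 TPM for Trp53rka, 4.95 TPM for Tprkb and 1.50 TPM for Trp53rkb, on a scale that is already per length. Over these 24, Trp53rkb varied most, with a coefficient of variation of 53.2%, and Osgep least, at 19.9%. Over the 21 libraries outside E11.5 Mut FL, the group that chose Lage3, Lage3 varied least, at 18.5%. Osgep was at 21.3% there and Trp53rkb again varied most, at 56.4%.

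In order of their means, Lage3 averaged 20.1 ± 2.56 TPM in E11.5 WT FL, 18.8 ± 2.58 in E11.5 WT HL, 17.0 ± 0.516 in E11.5 Mut HL and 17.0 ± 5.45 in E10.5 WT FL. It averaged 16.1 ± 2.74 TPM in E10.5 Mut HL, 15.6 ± 2.05 in E10.5 WT HL, 14.0 ± 2.52 in E10.5 Mut FL and 8.46 ± 1.30 in E11.5 Mut FL (SD, n = 3 in each group). The ranges of neighbours in this order overlapped, except at the last step. The highest E11.5 Mut FL library, at 9.24 TPM, lay below the lowest E10.5 Mut FL library, at 11.1 TPM. The E11.5 Mut FL libraries chose Lage3, so their place in this order is a description. Of all genes, 24.8% lay lower at E11.5 than at E10.5 in Mut FL without overlap.

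**Figure D1:**
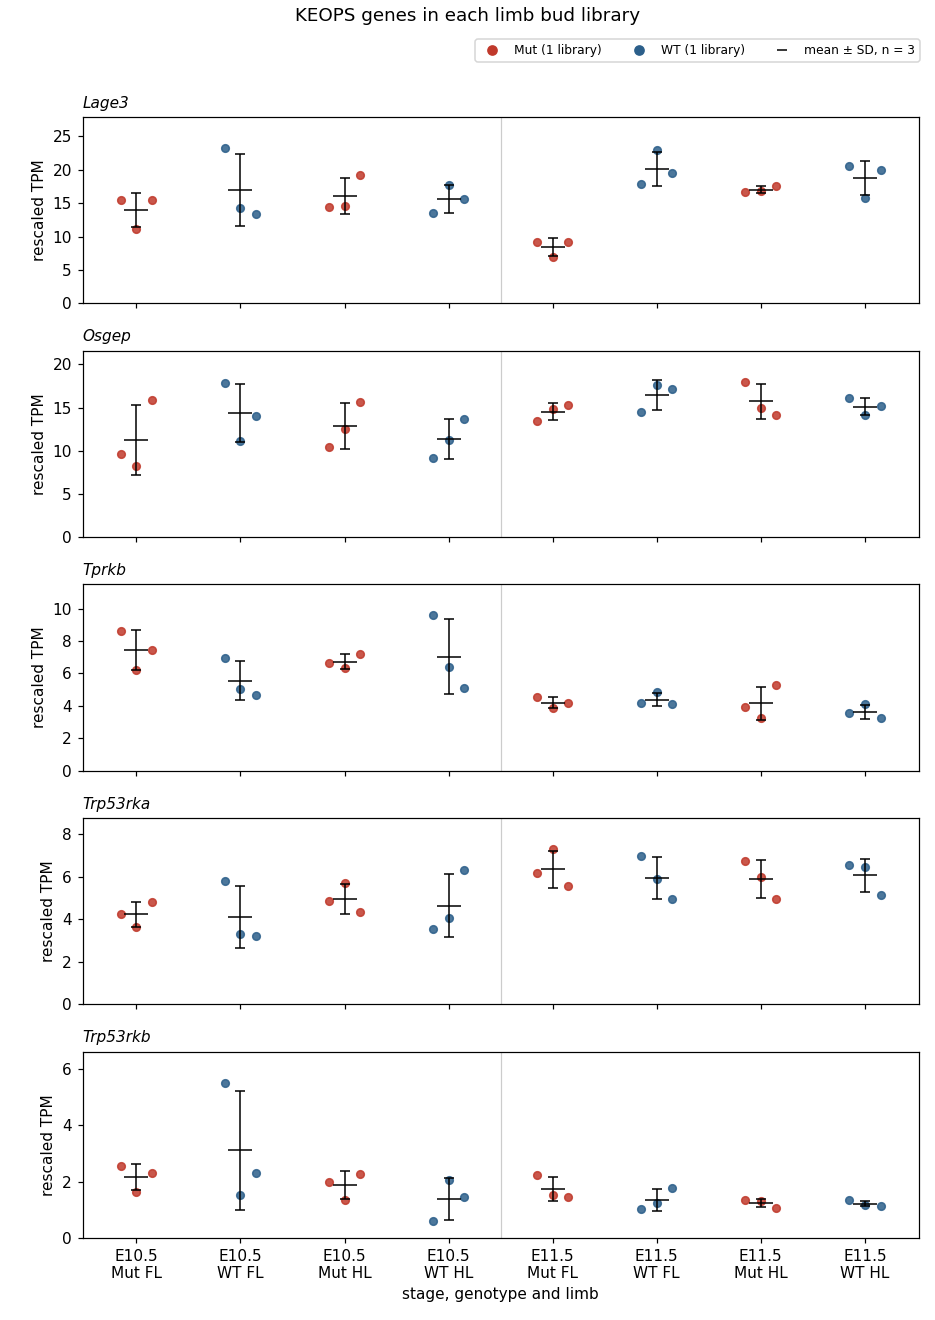
Rescaled TPM (vertical axes, from 0) of the 5 KEOPS genes in each of the 24 libraries, by stage, genotype and limb, with mutants left of WT. Points are libraries and bars the mean ± SD of 3. Lage3 averaged 8.46 TPM in E11.5 Mut FL and 20.1 TPM in E11.5 WT FL, while the other 4 genes overlapped between these groups.

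In E11.5 forelimbs, the contrast that chose the set, Lage3 stood at 9.24, 6.96 and 9.18 TPM in the Mut FL libraries and at 17.9, 22.9 and 19.4 TPM in the WT FL libraries. Every mutant library lay below every WT library, and the mutant mean was 0.422 of the WT mean. The difference of log2(rescaled TPM + 1) was -1.16 ± 0.13 (SE). Of the 11126 genes in this fit, 14.0% lay lower without overlap, 25.8% did not overlap in either direction, and 1.62% passed limma at an adjusted p of 0.05. On the deposited TPM scale the difference was -0.67, where the median of all genes was 0.39 higher in mutants. Without the 1 Xist-positive mutant library it was -1.22.

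The 4 partners overlapped between the genotypes in these forelimbs. Osgep, the catalytic subunit, had 13.4, 14.8 and 15.3 TPM in E11.5 Mut FL and 14.5, 17.6 and 17.2 TPM in E11.5 WT FL, a log2 difference of -0.17 ± 0.11. Tprkb, which binds the kinase subunit, had 4.55, 3.87 and 4.15 TPM in Mut FL and 4.16, 4.87 and 4.15 TPM in WT FL, a difference of -0.05 ± 0.13. The partners' differences were small beside that of Lage3. Trp53rka, the more abundant kinase copy, had 6.16, 7.31 and 5.58 TPM in Mut FL and 6.96, 5.88 and 4.96 TPM in WT FL. Trp53rkb had 2.23, 1.54 and 1.44 TPM in Mut FL and 1.04, 1.23 and 1.78 TPM in WT FL. Their log2 differences were 0.09 ± 0.14 for Trp53rka and 0.22 ± 0.14 for Trp53rkb, and the sum of the copies averaged 8.09 ± 0.950 TPM in Mut FL and 7.28 ± 0.644 TPM in WT FL (SD, n = 3 each). On the deposited scale Osgep turned to 0.33, and Tprkb, Trp53rkb and Trp53rka stood at 0.37, 0.51 and 0.53, beside the median of 0.39 over all genes.

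Cell-type marker sums moved with this contrast in part. The 3 limb muscle precursor markers Pax3, Lbx1 and Met summed to 5.88 to 6.93 TPM in E11.5 Mut FL and to 3.17 to 3.93 TPM in E11.5 WT FL. The 5 endothelial markers summed to 15.5 to 20.3 TPM in Mut FL and to 12.7 to 14.9 TPM in WT FL. The 5 mesenchyme markers overlapped, at 117 to 125 TPM in Mut FL and 111 to 133 TPM in WT FL. The 5 ectoderm markers summed to 19.3 to 27.1 TPM in Mut FL and to 22.5 to 25.3 TPM in WT FL, and the 5 erythroid markers to 2730 to 3300 TPM in Mut FL and 2066 to 4364 TPM in WT FL. The 3 myeloid markers summed to 3.10 to 7.18 TPM in Mut FL and to 2.64 to 4.29 TPM in WT FL, and the 3 neural markers to 2.35 to 2.86 TPM in Mut FL and 2.94 to 3.65 TPM in WT FL. No marker of these lists was at 0 in all libraries of either group. Their part in the Lage3 difference was not tested.

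The low Lage3 of E11.5 Mut FL had no counterpart that passed the test in the other limb or at the earlier stage. In E11.5 hindlimbs Lage3 had 16.6, 16.8 and 17.6 TPM in Mut HL and 20.5, 15.8 and 19.9 TPM in WT HL. The groups overlapped, and the log2 difference was -0.13 ± 0.13, with a 95% interval of -0.41 to 0.15 and a limma adjusted p of 0.804. In E10.5 forelimbs Lage3 had 15.4, 11.1 and 15.5 TPM in Mut FL and 23.2, 14.3 and 13.3 TPM in WT FL, a difference of -0.23 ± 0.21 with an interval of -0.70 to 0.23 (limma adjusted p = 0.941). The WT replicate 1 library, also low in Tbx5 and Rnu11, stood apart here, and without it the difference was 0.0029. In E10.5 hindlimbs Lage3 had 14.4, 14.6 and 19.2 TPM in Mut HL and 13.6, 17.7 and 15.6 TPM in WT HL, a difference of 0.03 ± 0.21 with an interval of -0.43 to 0.50 (limma adjusted p = 1). Without the Xist-positive libraries, which leaves 1 mutant library, this difference was -0.08. The mutant difference of Lage3 in HL minus that in FL at E10.5 was 0.27 ± 0.30 (limma adjusted p = 0.999), in a test that called 0% of 11955 genes and had 300 at an unadjusted p under 0.05. In HL, the mutant difference at E11.5 minus that at E10.5 was -0.16 ± 0.26 (limma adjusted p = 1), with 0.00807% of 12399 genes called. The difference between limbs at E11.5 and between stages in FL was not tested, since E11.5 FL chose the gene.

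None of the 5 genes passed limma in these 3 contrasts, at an adjusted p of 0.05 or at an unadjusted p of 0.05. The share of all genes that passed was 0.0180% for the E11.5 hindlimbs, 0.0251% for the E10.5 forelimbs and 0.00836% for the E10.5 hindlimbs, so few genes of any kind did. At an unadjusted p of 0.05 the shares were 6.17%, 5.24% and 1.96% in the same order, so a count of 0 among 5 genes is near the background. All 5 overlapped between mutant and WT in each of the 3, where 11.6% of genes did not overlap in E11.5 HL, 10.4% in the E10.5 FL pair and 5.75% in the E10.5 HL pair. The largest partner difference was that of Tprkb in E10.5 FL, with 8.63, 6.19 and 7.47 TPM in Mut FL and 6.96, 5.03 and 4.70 TPM in WT FL. That was 0.37 ± 0.20 on the log2 scale, with an interval of -0.07 to 0.81 (limma adjusted p = 0.907). Osgep differed at E10.5 by -0.36 ± 0.25 for FL (limma adjusted p = 0.928) and by 0.17 ± 0.25 for HL (1), and at E11.5 by 0.05 ± 0.11 for HL (0.914). Tprkb differed by -0.02 between the E10.5 hindlimbs and by 0.14 between the E11.5 hindlimbs. Trp53rka, the kinase copy with the higher level, lay between -0.04 in E11.5 HL and 0.11 in E10.5 HL, and Trp53rkb between -0.27 for FL and 0.31 for HL at E10.5.

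**Figure D2:**
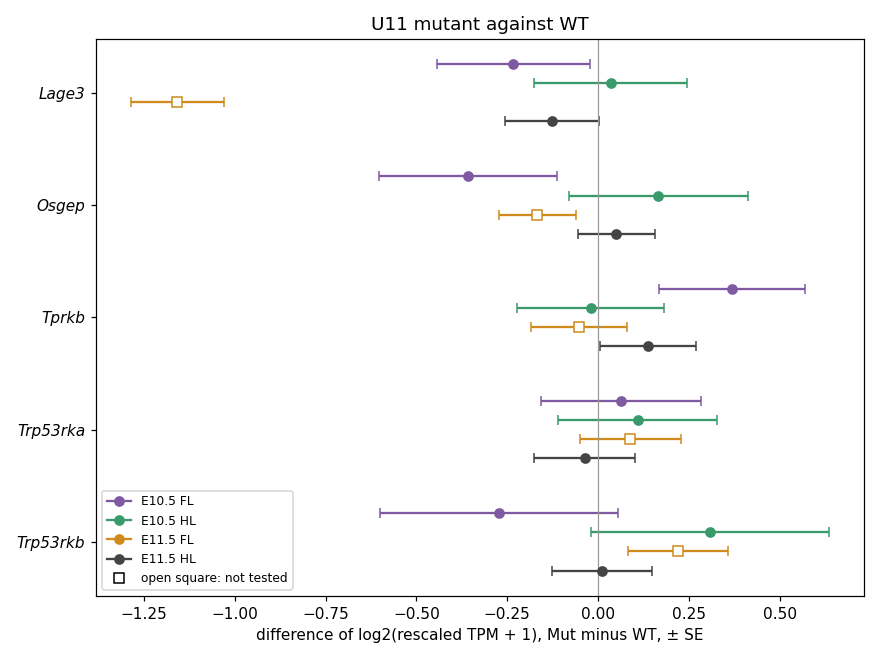
Mutant minus WT difference of log2(rescaled TPM + 1) ± SE (horizontal axis) for each KEOPS gene (rows) in 4 stage and limb pairs (colours). Open squares mark the E11.5 FL contrast that chose the set and was not tested. Lage3 in E11.5 FL, at -1.16, lies apart from the other 19 values, which run between -0.36 and 0.37.

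A ratio within a library does not depend on how the library was scaled. Lage3 divided by the mean of its 4 partners was 1.40, 1.01 and 1.39 in E11.5 Mut FL and 2.69, 3.09 and 2.77 in E11.5 WT FL. The groups did not overlap, their means were 1.27 ± 0.223 in Mut FL and 2.85 ± 0.213 in WT FL (SD, n = 3 each), and the log2 difference was -1.18, without a test. In the other 21 libraries the ratio ran between 2.03 and 3.23. It averaged 2.54 ± 0.286 in E11.5 Mut HL and 2.89 ± 0.401 in E11.5 WT HL (exact two-sided permutation p = 0.3, n = 3 each). At E10.5 it averaged 2.25 ± 0.218 in Mut FL and 2.50 ± 0.268 in WT FL (exact permutation p = 0.3), and 2.42 ± 0.180 in Mut HL and 2.56 ± 0.349 in WT HL (exact permutation p = 0.7). With 3 libraries against 3 the smallest p this test can give is 0.1. Raw p-values are given for these 3 tests, and adjustment could not bring them lower. Lage3 made up 24% of the summed TPM of the 5 genes in E11.5 Mut FL and 41.6% in E11.5 WT FL, and group means elsewhere lay between 36.0% and 41.8%. The 5 genes summed to 35.2 ± 0.635 TPM in E11.5 Mut FL and 48.2 ± 4.04 TPM in E11.5 WT FL, whereas the mean of the partners was 6.69 ± 0.167 TPM in Mut FL and 7.03 ± 0.375 TPM in WT FL.

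**Figure D3:**
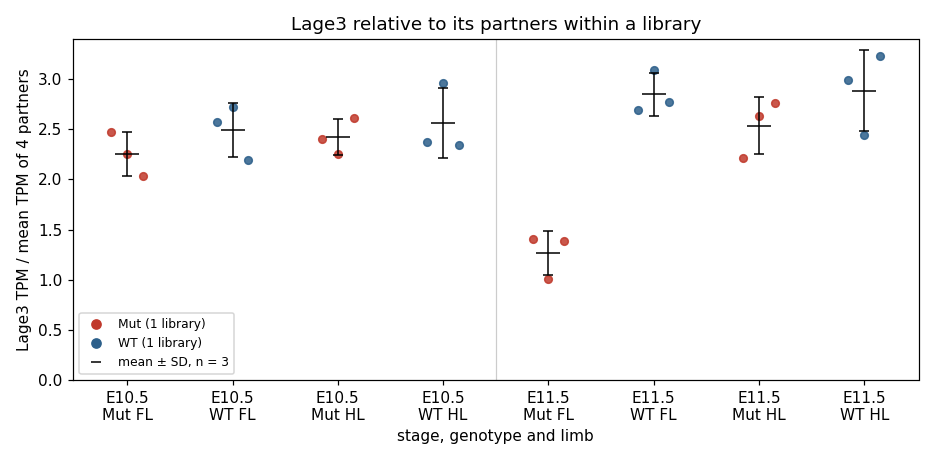
Lage3 TPM divided by the mean TPM of Osgep, Tprkb, Trp53rka and Trp53rkb in the same library (vertical axis, from 0), by stage, genotype and limb. Points are libraries and bars the mean ± SD of 3. The 3 E11.5 Mut FL libraries lie between 1.01 and 1.40, below the other 21, which lie between 2.03 and 3.23.

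Between the limbs, Lage3 was higher in mutant hindlimbs than in mutant forelimbs at E11.5, which uses the libraries that chose it and was not tested. It averaged 17.0 TPM in Mut HL and 8.46 TPM in Mut FL, without overlap, where 8.86% of genes lay higher in HL without overlap. The log2 difference was 0.94 ± 0.13, and on the deposited scale 0.46, beside a median over all genes of -0.44. In E11.5 WT it averaged 18.8 TPM in HL and 20.1 TPM in FL, a difference of -0.09 ± 0.13. At E10.5 it differed between HL and FL by 0.19 ± 0.21 in mutants (limma adjusted p = 0.955) and by -0.08 ± 0.21 in WT (0.939). None of the 4 partners passed limma between the limbs in either genotype at either stage. The share of all genes that passed was 0.386% in E11.5 Mut, 0.144% in E11.5 WT, 0.0586% in E10.5 Mut and 0.125% in E10.5 WT. Trp53rkb was lower without overlap in E11.5 Mut HL (1.07 to 1.34 TPM) than in Mut FL (1.44 to 2.23 TPM). Tprkb was lower without overlap in E11.5 WT HL (3.27 to 4.12 TPM) than in WT FL (4.15 to 4.87 TPM). The share of all genes lower in HL without overlap is not given here. Trp53rkb in E10.5 WT had the lowest adjusted value among the E10.5 tests and the only unadjusted p under 0.05 among the partners, in a contrast where 9.49% of all genes lay under 0.05. That share was 16.3% in E11.5 Mut, 6.88% in E11.5 WT and 6.57% in E10.5 Mut, so 1 such value among the partners is near the background. Trp53rkb had 0.61, 2.07 and 1.46 TPM in WT HL and 5.51, 1.54 and 2.30 TPM in WT FL, a difference of -0.72 ± 0.33 (limma adjusted p = 0.524). On the deposited scale, Trp53rkb and Trp53rka were lower in E11.5 Mut HL than in E11.5 Mut FL by a passing test (-0.56, limma adjusted p = 0.0219, and -0.53, 0.0419), again beside the median of -0.44.

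Between the stages, Tprkb was the member that fell in most groups. It fell at E11.5 in mutant forelimbs, mutant hindlimbs and WT hindlimbs, and the value in WT forelimbs was lower without passing the test. In Mut HL it had 3.95, 3.26 and 5.26 TPM at E11.5 and 6.67, 6.31 and 7.22 TPM at E10.5. In WT HL it had 3.55, 4.12 and 3.27 TPM at E11.5 and 9.58, 6.42 and 5.13 TPM at E10.5. In both, no E11.5 library reached the lowest E10.5 library. In Mut FL it had 4.55, 3.87 and 4.15 TPM at E11.5 and 8.63, 6.19 and 7.47 TPM at E10.5, also without overlap. In WT FL it had 4.16, 4.87 and 4.15 TPM at E11.5 and 6.96, 5.03 and 4.70 TPM at E10.5, with overlap. Genes lower at E11.5 without overlap were common, at 24.8% in Mut FL, 18.8% in WT FL, 24.4% in Mut HL and 22.1% in WT HL.

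The log2 difference of Tprkb was -0.69 ± 0.17 in Mut FL (limma adjusted p = 0.00592), -0.60 ± 0.17 in Mut HL (0.0125), -0.76 ± 0.17 in WT HL (0.00233) and -0.27 ± 0.17 in WT FL (0.229). The share of all 12399 genes that fell by this test was 17.3% in Mut FL, 17.5% in Mut HL, 17.9% in WT HL and 16.4% in WT FL, and the share that rose was 18.1%, 18.0%, 23.0% and 22.4% in the same groups. Whether the stage difference of Tprkb differs between WT forelimbs and the other groups was not tested. In Mut FL it no longer passed on the deposited scale (-0.49, limma adjusted p = 0.216) or without the Xist-positive libraries (-0.47, 0.303). In Mut HL it no longer passed without E11.5 Mut HL replicate 2 (-0.47, 0.0784) or without the Xist-positive libraries (-0.67, 0.107). Leaving those out keeps 1 E10.5 library in each of Mut FL and Mut HL, which is assumed to vary like the other groups. Marker sums also differed between the stages. Without overlap in either direction, 5 of 7 marker lists differed in Mut FL, 3 in Mut HL, 4 in WT HL and 3 in WT FL. The matching share of single genes in either direction is not given here. Lower at E11.5 alone, it was 24.8% in Mut FL, 24.4% in Mut HL, 22.1% in WT HL and 18.8% in WT FL. The share in either direction can only be as large or larger. The counts are therefore not read as a result about the markers. In Mut FL the ectoderm markers summed to 19.3 to 27.1 TPM at E11.5 and 33.0 to 65.4 TPM at E10.5, and the erythroid markers to 2730 to 3300 TPM at E11.5 and 3706 to 4535 TPM at E10.5. The mesenchyme markers in Mut FL summed to 117 to 125 TPM at E11.5 and 61.1 to 103 TPM at E10.5, and in WT HL to 121 to 122 TPM at E11.5 and 61.9 to 117 TPM at E10.5. The muscle precursor markers were lower at E11.5 in Mut FL, WT FL and WT HL, and the myeloid markers higher in Mut FL, Mut HL and WT HL. In WT HL the endothelial markers summed to 10.9 to 16.5 TPM at E11.5 and 25.0 to 29.4 TPM at E10.5, and in WT FL endothelial and ectoderm markers were lower as well. In Mut HL the erythroid markers summed to 2366 to 3312 TPM at E11.5 and 1610 to 2273 TPM at E10.5, and the neural markers to 1.95 to 2.31 TPM at E11.5 and 1.19 to 1.47 TPM at E10.5. Their part in the Tprkb differences was not tested.

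Tprkb shares its locus with Nat8f1 and the pseudogene Gm18290 on the opposite strand. The strand that was counted is not given in the sources used here.

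Trp53rkb fell in WT FL, with 1.04, 1.23 and 1.78 TPM at E11.5 and 5.51, 1.54 and 2.30 TPM at E10.5, a log2 difference of -0.70 ± 0.26 (limma adjusted p = 0.0417). The ranges overlapped, and the value rested on E10.5 WT FL replicate 1. Without that library it was -0.31 (limma adjusted p = 0.285), and it also no longer passed without E11.5 WT FL replicate 1 (-0.61, 0.133) or replicate 2 (-0.67, 0.0950). It did not pass with a pseudocount of 0.1 (-0.98, 0.0513), and at the same -0.70 it did not pass with no filter (0.0872) or with only the compared libraries fitted (0.149). In the other groups Trp53rkb differed by -0.21 in Mut FL, -0.35 in Mut HL and -0.05 in WT HL, and none of these passed. On the deposited scale the value in Mut HL was -0.87 with a passing test (limma adjusted p = 0.00589), beside a median of -0.61 over all genes.

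No member rose by the test on this scale. Trp53rka, the other kinase copy, had 6.16, 7.31 and 5.58 TPM at E11.5 and 4.26, 3.63 and 4.82 TPM at E10.5 in Mut FL, a log2 difference of 0.49 ± 0.19 (limma adjusted p = 0.0515). Its differences were 0.46 ± 0.19 in WT FL (limma adjusted p = 0.0592), 0.35 ± 0.19 in WT HL (0.145) and 0.21 ± 0.19 in Mut HL (0.409), but on the deposited scale they were -0.20 in WT HL and -0.53 in Mut HL. Leaving out E10.5 WT FL replicate 1 (0.69, 0.00841) or E11.5 WT FL replicate 3 (0.57, 0.0476) brought Trp53rka past the threshold in WT FL, and leaving out E10.5 WT HL replicate 3 did so in WT HL (0.56, 0.0266). Osgep differed by 0.39 ± 0.20 in Mut FL (limma adjusted p = 0.130), 0.40 ± 0.20 in WT HL (0.116), 0.28 ± 0.20 in Mut HL (0.278) and 0.20 ± 0.20 in WT FL (0.442), but on the deposited scale by -0.21 in WT HL, -0.52 in Mut HL and -0.25 in WT FL. The value of -0.52 passed (limma adjusted p = 0.0282). These deposited-scale values are to be read beside the medians over all genes. The medians were -0.42 in WT HL, -0.61 in Mut HL, -0.27 in WT FL and 0.18 in Mut FL. In Mut FL Osgep passed without E10.5 Mut FL replicate 3, the library with hindlimb markers (0.65, 0.0157), and on the deposited scale (0.62, 0.0467). Trp53rka in Mut FL passed where only the compared libraries were fitted (0.49, 0.0199). With nuclear protein-coding genes summed anew, both passed in Mut FL, Trp53rka at 0.64 (0.0270) and Osgep at 0.50 (0.0316).

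Lage3 in hindlimbs did not pass between the stages on this scale. It averaged 17.0 ± 0.516 TPM at E11.5 and 16.1 ± 2.74 TPM at E10.5 in Mut HL, a log2 difference of 0.09 ± 0.18 (limma adjusted p = 0.729). In WT HL it averaged 18.8 ± 2.58 TPM at E11.5 and 15.6 ± 2.05 TPM at E10.5 (SD, n = 3 each), a difference of 0.25 ± 0.18 (limma adjusted p = 0.284). In forelimbs, which were not tested, it differed by -0.66 ± 0.18 in Mut FL, with 8.46 TPM at E11.5 and 14.0 TPM at E10.5, and by 0.26 ± 0.18 in WT FL, with 20.1 TPM at E11.5 and 17.0 TPM at E10.5. On the deposited scale Lage3 stayed lower at E11.5 in Mut FL, at -0.44, while the sign turned in the other 3 groups, at -0.19 in WT FL, -0.72 in Mut HL and -0.37 in WT HL. On that scale the median over all genes differed between stages by 0.18 in Mut FL, -0.27 in WT FL, -0.61 in Mut HL and -0.42 in WT HL, and the value in Mut HL passed (limma adjusted p = 0.00441), close to the median of all genes there.

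**Figure D4:**
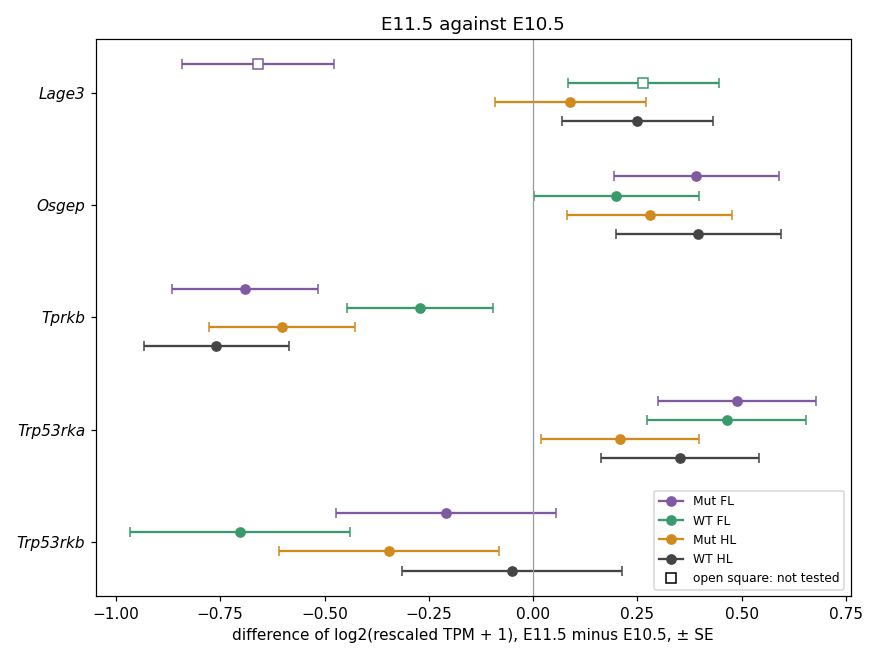
E11.5 minus E10.5 difference of log2(rescaled TPM + 1) ± SE (horizontal axis) for each KEOPS gene (rows) within 4 genotype and limb groups (colours). Open squares mark Lage3 in FL, which was not tested. Tprkb lies below 0 in all 4 groups, between -0.76 and -0.27, and Trp53rka and Osgep lie above 0 on this scale. The deposited scale put Trp53rka below 0 in both HL groups and Osgep in all but Mut FL. In those groups the median over all genes on the deposited scale was below 0 as well.

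Beyond KEOPS, the t6A pathway list held 5 genes, of which 4 had a row in the files, and Gon7, a further KEOPS subunit, was not analysed here. Yrdc makes the threonylcarbamoyl-adenylate that KEOPS uses, and Osgepl1 is the mitochondrial transferase. Cdkal1 adds a methylthio group to t6A, and Trmo methylates it. None of the 4 rose or fell by limma in any mutant against WT comparison. At an unadjusted p of 0.05, 2 of the 4 passed in E11.5 FL, where 22.5% of all genes did, and none in the other 3. In E11.5 FL the median log2 difference of the 4 was -0.28, against -0.02 over all 11126 genes.

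Cdkal1 had 7.83, 8.89 and 8.43 TPM in E11.5 Mut FL and 12.2, 9.34 and 10.1 TPM in E11.5 WT FL, a log2 difference of -0.30 ± 0.12 (limma adjusted p = 0.175). Trmo had 2.31, 1.97 and 2.31 TPM in Mut FL and 2.83, 2.73 and 3.06 TPM in WT FL, a difference of -0.28 ± 0.09 (limma adjusted p = 0.109). For both, every mutant library lay below every WT library, as for 14.0% of all genes, and neither passed the adjusted test. Osgepl1 differed by -0.29 ± 0.14 (limma adjusted p = 0.258), with 3.69, 2.37 and 2.54 TPM in Mut FL and 3.29, 4.25 and 3.52 TPM in WT FL. Yrdc differed by 0.28 ± 0.16 (limma adjusted p = 0.312), with 7.11, 6.20 and 4.79 TPM in Mut FL and 4.98, 4.28 and 5.04 TPM in WT FL. On the deposited scale the signs of Cdkal1, Trmo and Osgepl1 turned (0.18, 0.10 and 0.11), and Yrdc passed at 0.70 (limma adjusted p = 0.0273). All 4 of these deposited-scale values are to be read beside the median of 0.39. In E11.5 HL the 4 differences ran between -0.13 and 0.16. At E10.5 Osgepl1 lay higher in Mut FL than in WT FL without overlap, as 5.47% of genes did, by 0.48 ± 0.22 (limma adjusted p = 0.907).

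**Figure D5:**
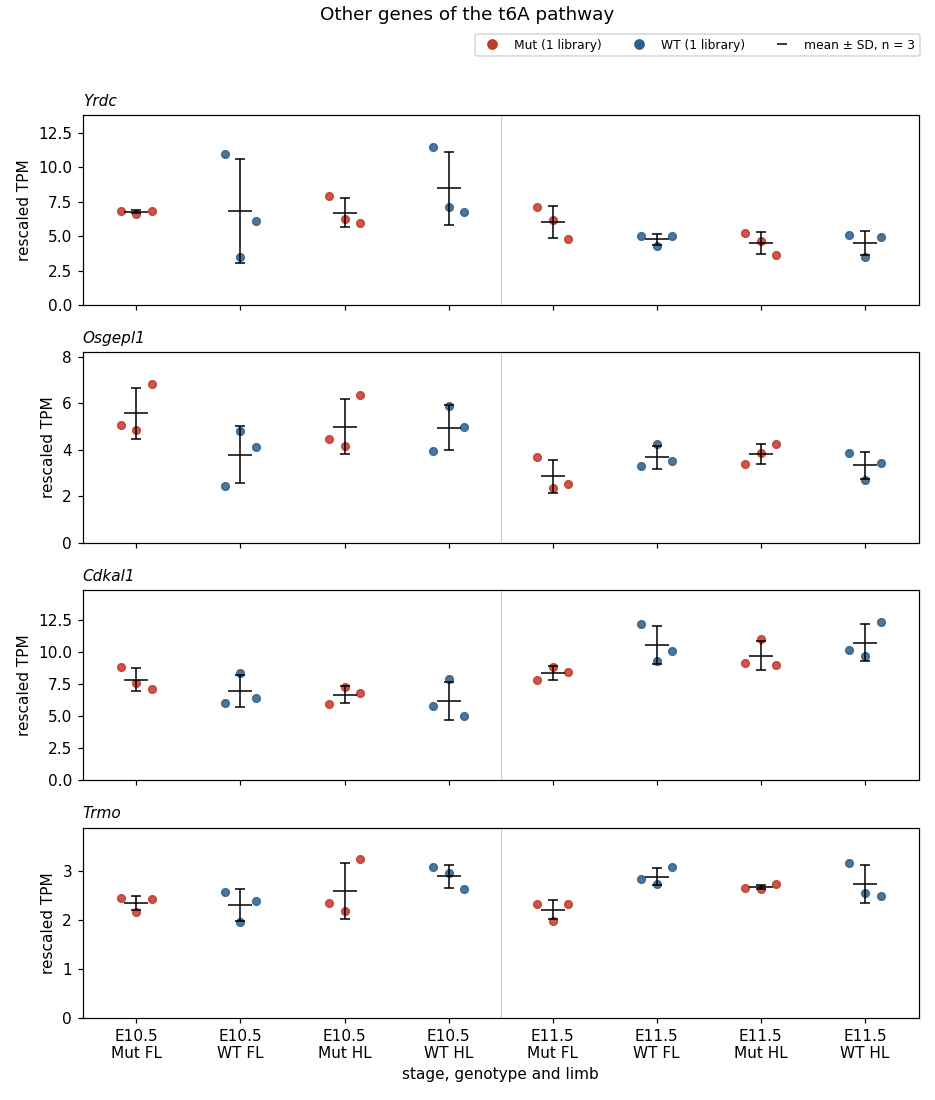
Rescaled TPM (vertical axes, from 0) of Yrdc, Osgepl1, Cdkal1 and Trmo in each library, by stage, genotype and limb. Points are libraries and bars the mean ± SD of 3. In E11.5 FL the Mut libraries of Cdkal1 and Trmo lie below the WT libraries.

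A list of 14 Elongator and wobble uridine genes was set beside these, called the Elongator list here. They act in modifying the wobble uridine, a base within the anticodon of tRNAs. None of the 14 measured genes at E10.5 and none of the 13 that passed the filter at E11.5 rose or fell by limma in a mutant against WT comparison. At an unadjusted p of 0.05, 2 of 13 passed in E11.5 FL, 1 of 13 in E11.5 HL and none at E10.5. Of all genes, 22.5% passed that threshold in the forelimbs and 6.17% in the hindlimbs of E11.5, so the list's counts are near the background. The median log2 difference in E11.5 FL was 0.09.

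The genes named here were ranked by the likeness of their levels to those of Lage3. Likeness was Pearson's r over the 24 libraries, each expressed as its deviation from the WT mean of the same stage and limb. The 5429 genes ranked were nuclear genes with a mean of at least 5 TPM. Predicted genes with Gm or Rik names and symbols not found in GENCODE M21 were left out. The highest were Dap3, a mitochondrial ribosomal protein (r = 0.949), Spc24, a kinetochore subunit (0.931), Sptssa, a subunit of serine palmitoyltransferase (0.925), Coa3, a cytochrome c oxidase assembly factor (0.919), and Eif3i, a translation initiation factor subunit (0.913). The points share libraries, and the E11.5 Mut FL libraries that chose Lage3 are among them, so genes low in that group rank high by the choice itself. Over the 18 libraries outside E11.5 FL, r was 0.798 for Dap3, 0.817 for Spc24, 0.726 for Sptssa, 0.810 for Coa3 and 0.796 for Eif3i. For the partners r over the same 18 libraries was 0.695 for Osgep, -0.011 for Tprkb and 0.385 for Trp53rka, beside 0.481, 0.178 and 0.0188 over all 24, and Trp53rkb lay under the minimum level. The 5 named genes were picked by r over libraries that include these 18, so the choice favours high values there too. Osgep was not picked this way, and r for the rest of the 5429 genes is not given. Its value is therefore not ranked against theirs. Dap3 averaged 16.7 ± 2.42 TPM in E11.5 Mut FL and 29.1 ± 2.08 TPM in E11.5 WT FL, and 27.9 ± 3.03 TPM in E11.5 Mut HL and 28.5 ± 0.596 TPM in E11.5 WT HL (SD, n = 3 each). Spc24 averaged 7.02 ± 1.10 TPM in E11.5 Mut FL and 14.8 ± 0.946 TPM in E11.5 WT FL, and 12.1 ± 1.29 TPM in E11.5 Mut HL and 14.3 ± 0.605 TPM in E11.5 WT HL. Their low means in E11.5 Mut FL follow from how they were chosen.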

How the data were processed

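The authors deposited 1 table of TPM per gene symbol for each of 24 stranded total RNA libraries of limb buds, each summing to 1000000 TPM. HISAT2 and mm10 are named in the submitters' processing notes, while for the quantifier, annotation and counted strand nothing is given in those sources. Depth is unknown, so no counting intervals are given. Groups were taken from the labels, 8 of 3 libraries. Libraries were rescaled to an equal median over 3518 genes, log2(TPM + 1) was taken, and genes that reached 1 TPM in 3 or more libraries were tested with limma 3.58.1 (R 4.3.3, eBayes with trend), two-sided, with Benjamini-Hochberg adjustment over all genes and a threshold of 0.05. Mutant against WT and HL against FL were fitted on the 12 libraries of a stage, and stages on all 24. Adjusted p-values in the text come from these fits. The script was tested on simulated data. Gene structures are those of GENCODE M21 on GRCm38, in which 36217 of the 38019 symbols were found.

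The members and lists were chosen with earlier results of these data known. Named genes are the members in every comparison, the t6A list, any Elongator gene that passes, Rnu11 and the 5 genes most like Lage3. Replicate numbers recur in all groups. Deviations of same-numbered libraries correlated above 0.1 in all 3 pairs only between E10.5 Mut HL and E10.5 Mut FL (0.20 to 0.52). The labels name no shared litter or embryo. The Xist-positive libraries had the same numbers in Mut FL and Mut HL, 1 and 3 at E10.5 and 3 at E11.5. Ddx3y was at 6.49 TPM in E10.5 Mut FL replicate 3 but not detected in Mut HL replicate 3. Whether FL and HL libraries of a number share an embryo was not tested. The HL against FL fits were unpaired, with the replicate block as an alternative. Alternatives covered scale, pseudocount, filter, libraries fitted, replicate block, and leaving out libraries.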

Additional observations from a re-analysis of the deposited data

How the results depend on the processing

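Over 82 results, 1071 of 1179 alternatives kept the direction and the side of the threshold (or stayed within the spread between replicates), 76 turned the sign, 10 lost a call, 13 gained one and 9 moved a value. Small untested differences that crossed 0 are counted as kept or moved. Causes were not tested. On the deposited scale the median over all genes itself differed between the groups compared. The replicate block changed no call in any comparison it was run on (Lage3 in E11.5 HL -0.13 with the block, adjusted p = 0.836). Rescaling within a stage could not be used between stages.

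On the deposited scale, mutant against WT gave for Lage3 -0.67 in E11.5 FL; for Osgep 0.33 in E11.5 FL and -0.028 for E11.5 HL; for Tprkb 0.086 in E10.5 HL; for Trp53rka -0.10 in E10.5 FL; and for Trp53rkb -0.034 in E11.5 HL. Yrdc gave -0.064 in E10.5 FL and -0.064 in E11.5 HL. Cdkal1 gave -0.013 in E10.5 FL and 0.18 in E11.5 FL, Trmo -0.11 and 0.10, and Osgepl1 0.11 in E11.5 FL. For HL against FL, E10.5 Mut gave 0.40 for Tprkb and 0.26 for Trp53rkb, E10.5 WT gave 0.17 for Lage3, and E11.5 Mut gave 0.46 for Lage3 and -0.38 for Osgep. For E11.5 against E10.5, Lage3 gave -0.19 in WT FL, -0.72 in Mut HL and -0.37 in WT HL. Osgep gave -0.25 in WT FL, -0.52 in Mut HL and -0.21 in WT HL, and Trp53rka -0.53 in Mut HL and -0.20 in WT HL. The median over all genes between the stages was -0.27 in WT FL, -0.61 in Mut HL and -0.42 in WT HL.

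With nuclear protein-coding genes summed anew, mutant against WT gave -0.014 for Trmo in E10.5 FL, 0.0086 for Tprkb in E10.5 HL, and -0.014 for Trp53rkb and -0.031 for Yrdc in E11.5 HL. Without the E10.5 Mut FL library with hindlimb markers, Trp53rka in E10.5 FL was -0.017. Without the Xist-positive libraries, which leaves 1 E10.5 mutant library per limb, E10.5 FL gave -0.11 for Trp53rka and -0.054 for Trmo, E10.5 HL gave -0.083 for Lage3 and -0.19 for Osgepl1, and E11.5 HL gave -0.013 for Tprkb and 0.065 for Trp53rka. There, Tprkb in E10.5 Mut HL against FL was 0.024, and E11.5 against E10.5 in Mut FL gave -0.42 for Lage3 and 0.11 for Trp53rkb. Lage3 over Osgep alone in E10.5 FL gave 0.14, and over Tprkb alone -0.68.

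Leaving out 1 library at a time turned the sign of small differences, and their ranges follow. For mutant against WT in E10.5 FL they were Lage3 -0.38 to 0.0029, Trp53rkb -0.56 to 0.12, Trp53rka -0.055 to 0.29, Yrdc -0.24 to 0.46 and Trmo -0.058 to 0.082. For mutant against WT in E10.5 HL they were Lage3 -0.094 to 0.12, Tprkb -0.20 to 0.20, Trp53rka -0.033 to 0.31, Osgepl1 -0.15 to 0.12 and Cdkal1 -0.017 to 0.26. For mutant against WT in E11.5 HL they were Osgep -0.046 to 0.12, Tprkb -0.013 to 0.27, Trp53rkb -0.021 to 0.069, Trp53rka -0.13 to 0.065, Yrdc -0.14 to 0.12 and Trmo -0.067 to 0.062. For mutant against WT in E11.5 FL, not tested, they were Tprkb -0.10 to 0.0091 and Trp53rka -0.016 to 0.19, and for the ratio of Lage3 to its partners in E10.5 HL -0.14 to 0.033. For HL against FL in E10.5 Mut they were Trp53rkb -0.26 to 0.0020. For HL against FL in E10.5 WT they were Lage3 -0.22 to 0.16 and Trp53rka -0.063 to 0.37. For HL against FL in E11.5 Mut they were Tprkb -0.18 to 0.10 and Trp53rka -0.18 to 0.0074. For HL against FL in E11.5 WT they were Lage3 (not tested) -0.17 to 0.018, Trp53rkb -0.16 to 0.059 and Trp53rka -0.073 to 0.14. For E11.5 against E10.5 in WT HL they were Trp53rkb -0.31 to 0.16.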
